A study of Saccharomyces cerevisiae with 12 samples.

Results

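Small nucleolar RNA (snoRNA) genes of budding yeast were examined in maps of topoisomerase 2 (Top2) covalent complexes made by CC-seq. The members were the genes that the R64 annotation types as snoRNA and names SNR plus a number. Of 76 such genes, the 4 on chromosome III were left out because the authors' reference genome holds added sequence there. The 72 genes that remained were compared with 6218 annotated genes in all, themselves included. Of the 72, 8 lie inside introns of protein coding genes and 64 lie outside introns. The 64 form 52 transcription units, 47 of them single genes and 5 holding 17 genes. A unit here is a run of snoRNA genes on 1 strand with gaps of at most 500 bp. By box class, 46 members are C/D and 26 are H/ACA.

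Cells grew vegetatively in YPD in the BY4741 background. All 3 strains carried the pdr1DBD-CYC8 cassette, written pdr1, which lowers drug export. In addition pdr1sae2 lacked Sae2 and pdr1mre11 lacked Mre11, both factors in the removal of proteins from DNA ends. Each strain was treated for 4 h with 1 mM VP16 (etoposide), a drug that holds Top2 in its DNA-bound state, or left untreated (UT, with 2% DMSO given as the vehicle in the treatment protocol). There were 2 libraries in each of the 6 groups, 6 VP16 and 6 untreated in all, labelled as separate biological replicates. Since pdr1 was in every group, no library speaks of cells with normal drug export.

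snoRNAs guide and assist the making of ribosomes. C/D box snoRNAs direct 2′-O-methylation of ribosomal RNA and H/ACA box snoRNAs direct its pseudouridylation, each by pairing with the target. A few, such as U3, U14, snR30 and snR10, are needed for cleavage of the ribosomal precursor. Most yeast snoRNA genes are short, heavily used RNA polymerase II genes with their own promoters, while SNR52 is transcribed by RNA polymerase III. Top2 passes 1 DNA duplex through a break in another and relieves the twist that transcription and replication leave behind. A trapped Top2 is bonded to the 5′ ends of the break, and the ends on opposite strands are offset so that a 4-base overhang lies between them.

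CC-seq enriches DNA ends bonded to protein and counts their 5′ terminal nucleotides, called hits here. Libraries held 685100 to 3463679 nuclear hits. Hits of both strands were summed over each gene, over 500 bp before its start (upstream) and over 500 bp after its end (downstream), oriented by the gene's strand. Density is given as hits per unmasked base divided by the library's mean outside chromosome III, so that 1 is the library mean. Changes are log2 ratios of VP16 over untreated libraries with their standard error (SE), fitted by edgeR's quasi-likelihood test with strain as a term over 18308 windows of all genes, and called at a Benjamini-Hochberg adjusted p under 0.05. TMM factors centred the median change of all windows at 0.01. Library sizes set by the human DNA spike-in moved that median to 1.60, a shift of 1.59, so that rises and falls below are relative to the rest of each library. On the spike-in scale 63 of 64 upstream, 59 of 64 gene and 64 of 64 downstream windows of members outside introns rose and none fell, where 98.2%, 95.1% and 97.4% of these windows over all genes rose.

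The strongest cleavage sites near snoRNA genes lay in intergenic DNA and repeated in all 6 VP16 libraries. A site is a Watson-strand position and the Crick-strand position 3 bp beyond it. The sites were ranked by their mean share of nuclear hits in the VP16 libraries, 1 per unit, so their height, and VP16 libraries being above untreated ones there, follow in part from that choice and are a description. The Watson strand around the 5 strongest is shown because these few bases carry a large part of the signal of their genes, and capitals mark the 4-base overhang:
SNR67: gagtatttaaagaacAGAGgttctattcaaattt
SNR80: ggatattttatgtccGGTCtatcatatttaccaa
SNR40: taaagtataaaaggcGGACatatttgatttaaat
SNR39B: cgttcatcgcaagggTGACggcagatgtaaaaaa
SNR31: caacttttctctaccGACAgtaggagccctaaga
In R64 these stretches are chrV:61031-61064, chrV:51760-51793, chrXIV:88989-89022, chrVII:366751-366784 and chrXV:842253-842286. Each occurs 1 time in the genome.

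The SNR67 site lay 305 bases before the start of SNR67, between it and the divergent gene RML2. SNR67 guides methylation of the large subunit rRNA and is the first gene of a unit with SNR53. The site had 50, 163 and 232 hits in the lowest, median and highest VP16 library and 1, 12.5 and 48 in untreated libraries. It took on average 29.8% of VP16 hits and 6.67% of untreated hits in SNR67 and its flanks. Scaled to 1000000 nuclear hits, VP16 libraries ran between 47.8 and 80.7 and untreated libraries between 1.50 and 14.2, so the groups did not overlap.

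The SNR80 site lay 372 bases beyond the end of SNR80, a pseudouridylation guide for both rRNA subunits, in the gap before POL5. Its hits numbered 41, 124.5 and 215 under VP16, against 1, 4.5 and 22 without drug. This single site took 33.6% of VP16 hits in SNR80 and its flanks, against 2.75% of untreated hits. The SNR40 site lay 205 bases before the start of SNR40, a methylation guide, and held 42, 111.5 and 180 hits in VP16 libraries against 0, 1 and 5 in untreated ones. The SNR39B site lay 299 bases before SNR39B, also a methylation guide, with 34, 65.5 and 141 VP16 hits against 0, 2 and 4 untreated hits. The SNR31 site lay 88 bases before SNR31, in the promoter it shares with SNR5, with 21, 81.5 and 125 VP16 hits against 0, 0 and 1 untreated hits. As a description of sites chosen for their VP16 hits, VP16 and untreated libraries did not overlap on that scale at any of the 5.

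**Figure D1:**
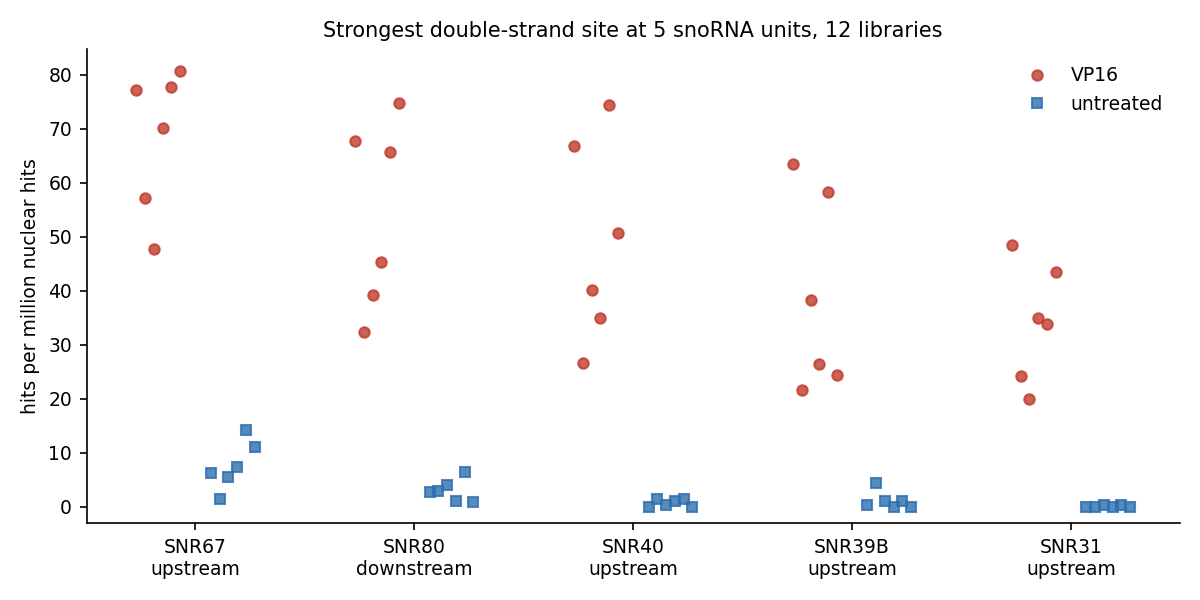
Hits per 1000000 nuclear hits (vertical axis) at the strongest site of 5 snoRNA units, with 1 point for each of 6 VP16 (red circles) and 6 untreated (blue squares) libraries. VP16 libraries ran between 47.8 and 80.7 at the SNR67 site, against 1.50 to 14.2 in untreated libraries, and no site showed overlap, as a description of sites chosen for their VP16 hits.

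Both strands gave hits at these sites. In the VP16 libraries together the Watson strand gave 49.9% of hits at SNR67, 51.7% at SNR80, 58.0% at SNR40 and 57.1% at SNR31. At SNR39B it gave 6.44%, so nearly all hits there came from the Crick strand. The shares of single libraries differed from these. At SNR80 the Watson strand gave 89 of 144 hits in replicate 1 of VP16-treated pdr1 and 17 of 51 in replicate 2. At SNR31 it gave 67 of 103 in replicate 1 and 13 of 38 in replicate 2. In the other strains too, replicate 1 had the higher Watson share at both sites. At SNR67 and SNR31 a C stood 5′ of the cleaved bond on both strands. At SNR39B a C preceded the Crick-strand bond and a G the Watson-strand bond. At SNR80 and SNR40 a C preceded the Watson-strand bond only.

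The same base preference held over all members. Within the 72 genes and their flanks a C preceded 57.8 ± 7.59% of hits in VP16 libraries and 21.6 ± 0.593% in untreated libraries (SD, n = 6 each), where C makes up 18.3% of bases. Over all nuclear hits outside chromosome III the shares were 58.9 ± 8.17% and 22.4 ± 0.538%. The VP16 libraries of pdr1mre11 stood at 62.9% (95% Wilson interval 62.3 to 63.5) and 63.1% (62.5 to 63.7), those of pdr1sae2 at 45.1% (44.1 to 46.1) and 59.8% (59.1 to 60.5), and those of pdr1 at 63.9% (63.2 to 64.5) and 52.2% (51.4 to 53.1). Replicate 1 of VP16-treated pdr1sae2 was therefore the lowest and still above every untreated library, whose shares ran from 20.9% to 22.4%. The intervals cover counting error only. With each position counted once the VP16 mean was 45.1%.

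Members varied in how much of their signal lay at 1 site. The strongest site took 8.33% of a member's VP16 hits at the median of 72 members, with a range of 3.53% to 33.6%. The SNR80 site set the upper end of that range.

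Before the start of snoRNA genes, VP16 raised hit density in 32 of 64 members outside introns and lowered it in 7, relative to the rest of the library. Over all genes 51.8% of upstream windows rose and 13.9% fell. The members' shares of 50% and 10.9% are near these, and their median log2 change was 0.27, beside 0.30 over all genes. Summed over the 64 upstream windows, density was 1.53 ± 0.166 in VP16 libraries and 1.09 ± 0.0870 in untreated libraries (SD, n = 6 each). All 64 windows passed the filter on low counts. C/D members had 21 rises and 4 falls among 40, and H/ACA members 11 rises and 3 falls among 24.

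**Figure D2:**
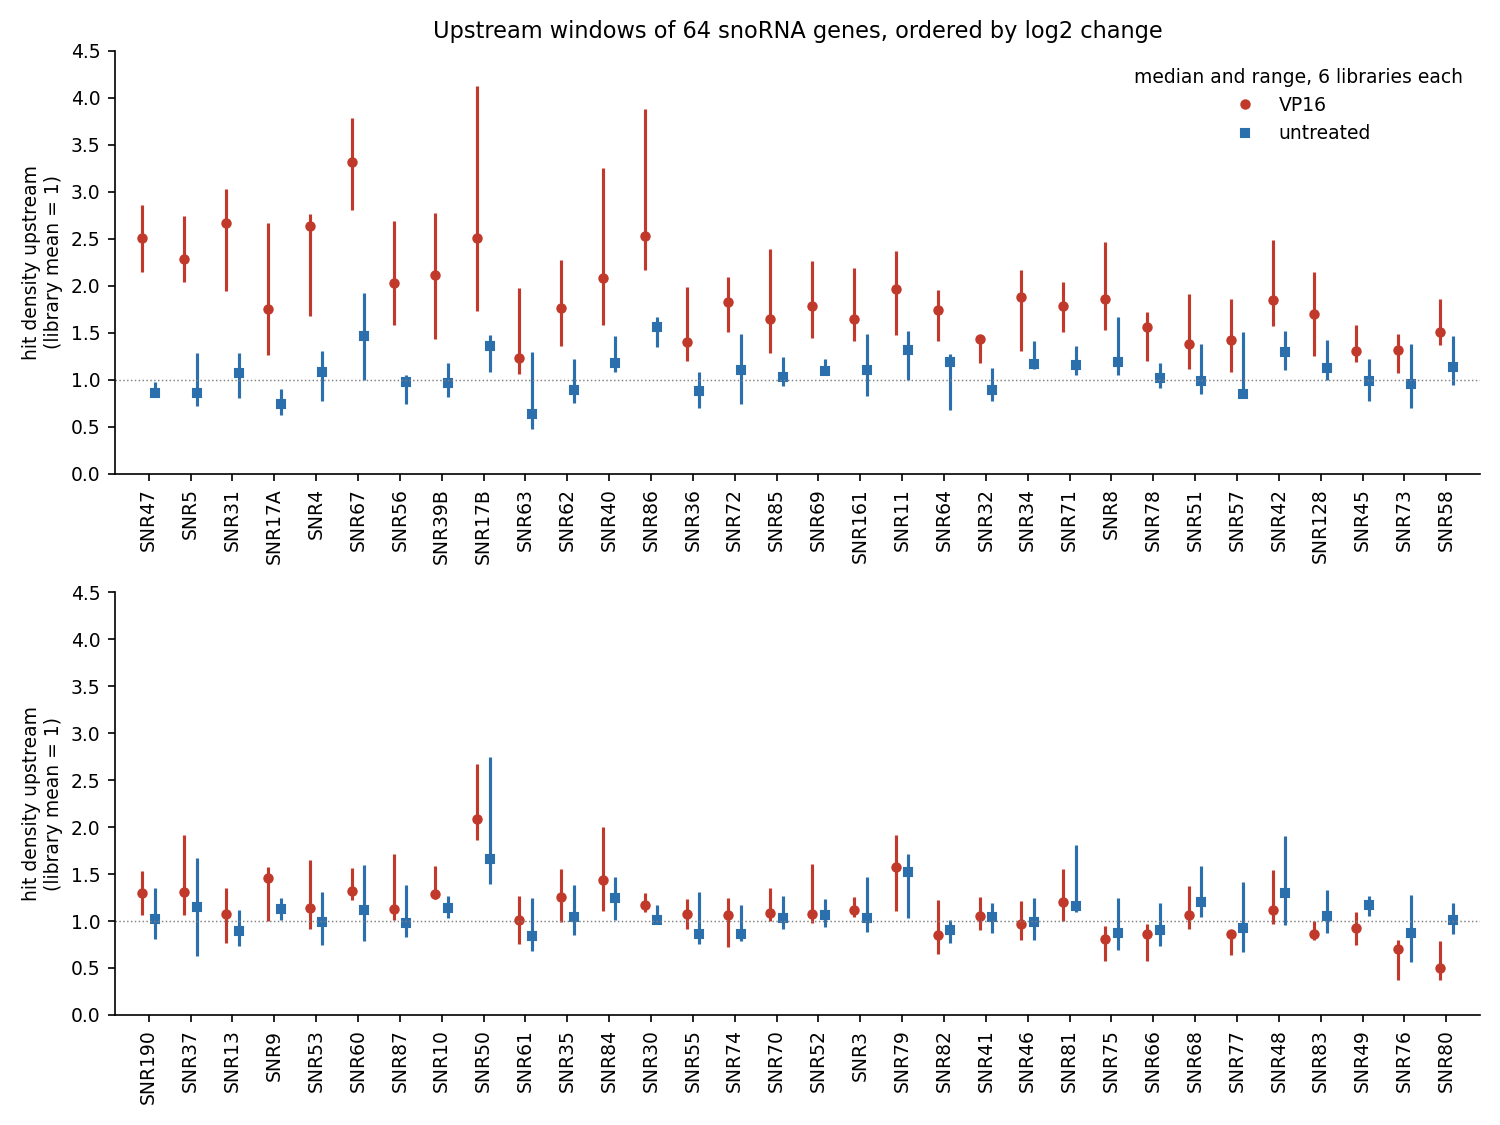
Upstream hit density (vertical axis, library mean = 1) of the 64 snoRNA genes outside introns, ordered by log2 change from SNR47 (1.40) to SNR80 (−1.05). Points are medians and lines the range of 6 VP16 (red, left) and 6 untreated (blue, right) libraries; the groups separate at the left of the upper panel and cross in most of the lower one.

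The largest rise was at SNR47, a C/D guide for methylation of both rRNA subunits. Its upstream density was 2.14, 2.50 and 2.85 in the lowest, median and highest VP16 library, against 0.822, 0.859 and 0.977 in untreated libraries. The groups did not overlap and the log2 change was 1.40 (SE 0.11, edgeR adjusted p = 3.21e-11). The 250 bases before SNR47 (chrIV:541701-541950, minus strand) are shown because their strongest site, with its overhang in capitals, lay in the second-highest bin of the averaged profile, from −200 to −181:
SNR47 upstream: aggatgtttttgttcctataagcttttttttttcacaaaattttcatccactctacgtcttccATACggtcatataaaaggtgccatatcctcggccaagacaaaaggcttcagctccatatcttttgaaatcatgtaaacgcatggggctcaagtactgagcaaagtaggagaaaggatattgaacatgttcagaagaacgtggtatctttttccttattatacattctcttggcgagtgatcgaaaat
That site had 22, 75 and 98 hits in VP16 libraries and 0, 5 and 10 in untreated libraries. SNR47 itself gave the bin from −200 to −181 the most VP16 hits. With SNR47 the bin was at 2.81 in VP16 libraries against 1.20 in untreated ones, and without it at 2.35 against 1.18.

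SNR5 and SNR31, H/ACA guides for pseudouridylation of the large and small subunit rRNA, start 220 bp apart on opposite strands. Their upstream windows overlap, so they are not independent. SNR5 had 2.04, 2.29 and 2.74 in VP16 libraries against 0.723, 0.855 and 1.28 in untreated libraries, a log2 change of 1.29 (SE 0.12). SNR31 had 1.94, 2.67 and 3.03 against 0.804, 1.07 and 1.29, a log2 change of 1.21 (SE 0.12). Neither pair of groups overlapped. The whole stretch between the 2 genes (chrXV:842183-842402, Watson strand) is shown with the overhang of the SNR31 site in capitals, 86 bases into the stretch:
SNR31 to SNR5: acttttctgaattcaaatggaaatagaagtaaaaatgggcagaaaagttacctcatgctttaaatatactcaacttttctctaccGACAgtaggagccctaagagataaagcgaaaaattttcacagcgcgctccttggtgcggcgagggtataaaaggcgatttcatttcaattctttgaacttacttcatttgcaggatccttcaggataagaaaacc

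The 2 copies of U3, the snoRNA at the heart of the small subunit processome, rose upstream. SNR17A had 1.27, 1.75 and 2.66 in VP16 libraries against 0.625, 0.741 and 0.902 in untreated libraries (log2 change 1.20, SE 0.12). SNR17B had 1.73, 2.50 and 4.12 against 1.08, 1.36 and 1.47 (log2 change 0.92, SE 0.15). Neither copy overlapped between groups upstream. Their gene windows did not pass the test, at 0.07 (SE 0.12) for SNR17A and −0.19 (SE 0.16) for SNR17B, and hold 12.4% and 13.2% of 40-base stretches that recur in the genome. Downstream they went apart. SNR17A rose to 1.78, 2.52 and 3.36 in VP16 libraries, against 1.14, 1.26 and 1.59 in untreated ones (0.80, SE 0.12), while SNR17B fell to 0.350, 0.634 and 0.709, against 0.741, 0.961 and 1.03 (−0.89, SE 0.16, relative to the library; 0.74 on the spike-in scale). The gene that follows SNR17A is DFR1, 309 bp on and on the same strand. POC4 follows SNR17B 129 bp on and faces it.

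The other large upstream rises were at SNR4, SNR67, SNR56, SNR39B and SNR62. SNR4, which guides rRNA acetylation, had 1.68, 2.63 and 2.76 in VP16 libraries against 0.777, 1.09 and 1.31 in untreated libraries (1.09, SE 0.13). SNR67 had the highest median level of the 64, with 2.80, 3.31 and 3.78 against 1.00, 1.46 and 1.92 (1.08, SE 0.11). In all 5 the VP16 and untreated libraries did not overlap. These genes, like SNR47, SNR5 and SNR31, were chosen for their rises, so this is a description. The share of windows without overlap over all genes is not given. SNR56 changed by 1.02 (SE 0.13), SNR39B by 0.98 (SE 0.14) and SNR62 by 0.86 (SE 0.13). Among the 10 largest rises, 4 turned with 200 bp flanks, where SNR67 gave −0.27, SNR39B −0.27, SNR62 −0.072 and SNR17B −0.020, none past the test. SNR67 was at 0.12 and SNR39B at 0.21 with each position counted once, and neither passed.

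The largest upstream fall was at SNR80. Its 500 bp before the start, which reach 100 bp into RPL12A, had 0.375, 0.497 and 0.786 in VP16 libraries against 0.857, 1.01 and 1.20 in untreated libraries, with no overlap. The log2 change was −1.05 (SE 0.17, adjusted p = 2.92e-06), and 0.51 on the spike-in scale. SNR80 was at the same time the largest downstream rise, at 2.09, 2.92 and 3.33 against 1.13, 1.25 and 1.48 (1.02, SE 0.12). With 200 bp flanks, which do not reach the site 372 bases beyond the end, the change was −0.16 and did not pass. SNR49, SNR83 and SNR77 also fell upstream in all 6 same-numbered pairs, by 0.50 (SE 0.12), 0.43 (SE 0.12) and 0.35 (SE 0.15) on the log2 scale relative to the library. Their groups overlapped, and on the spike-in scale they were 1.10, 1.19 and 1.18. With 200 bp flanks SNR49 was at 0.0039, SNR83 at −0.24 and SNR77 at −0.048, none past the test. SNR49 and SNR83 are pseudouridylation guides and SNR77 is the second gene of its cluster. The SNR77 call was lost in 8 of 12 fits that left out 1 library, with log2 changes there between −0.35 and −0.23.

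Around the starts of the 52 units the averaged density under VP16 was uneven. It was highest in the bin from −220 to −201, at 3.16 ± 0.638 in VP16 libraries against 1.14 ± 0.116 in untreated libraries (SD, n = 6 each). Without SNR40, which gave that bin the most hits, it was 2.67 against 1.13. In 31 of 52 units the VP16 mean in this bin was above the untreated mean. In the last 20 bases before the start the values were 0.898 ± 0.223 and 1.07 ± 0.138. Protein coding genes, measured from the start codon, peaked in the bin from −120 to −101 at 2.50 ± 0.332 against 1.25 ± 0.0859. The anchors differ, since an annotated snoRNA start is the end of the mature RNA and a start codon lies inside the transcript.

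**Figure D3:**
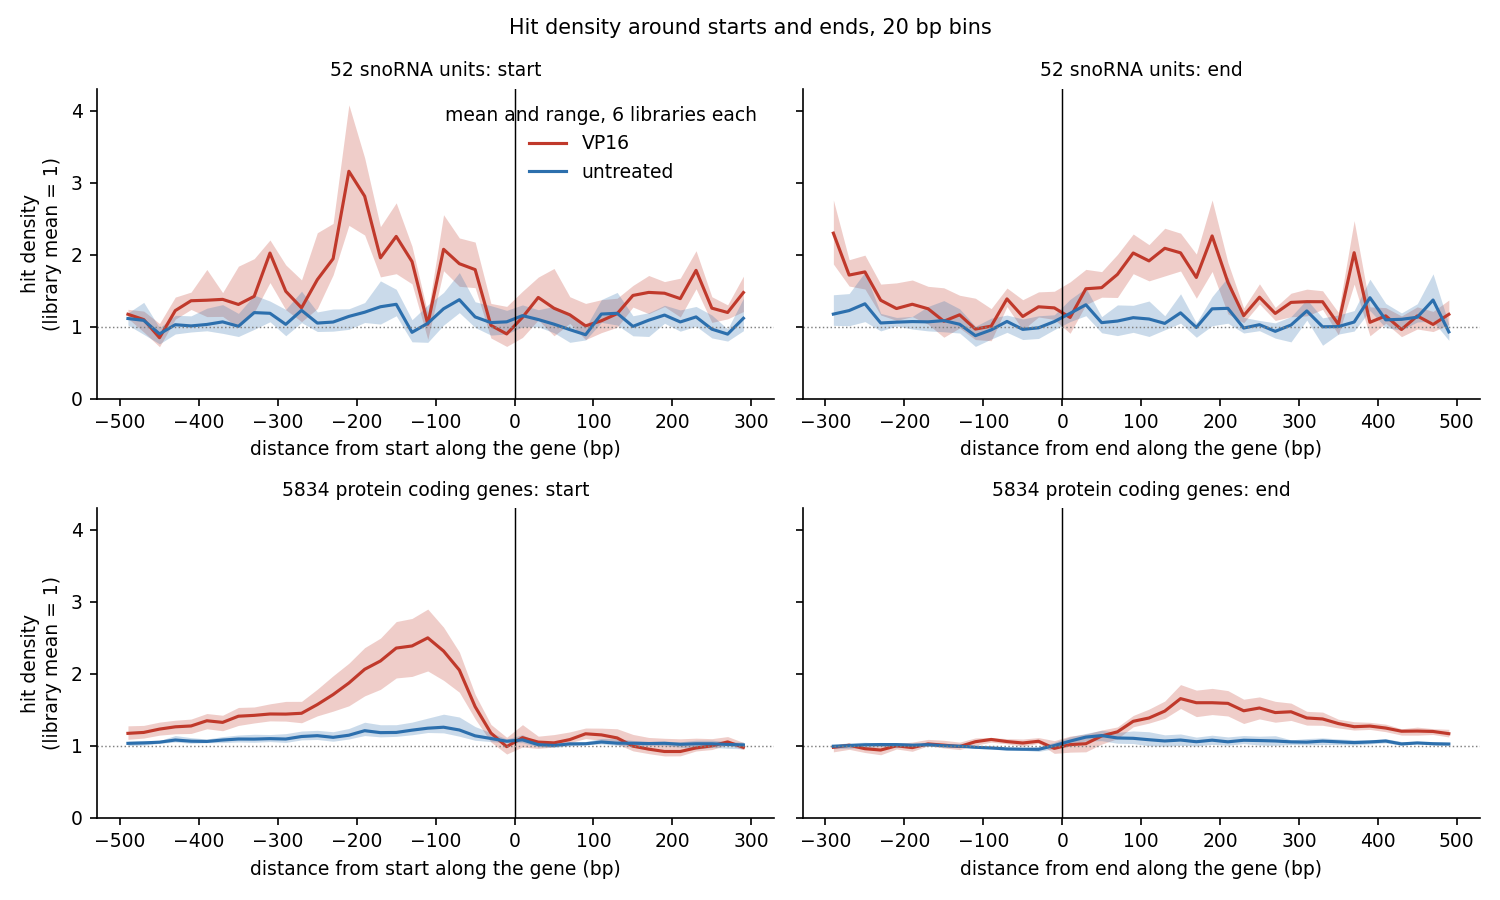
Hit density in 20 bp bins (vertical axis, library mean = 1) by distance in bp from the start (left) and end (right) of 52 snoRNA units (top) and 5834 protein coding genes (bottom). Lines are means and bands the range of 6 VP16 (red) and 6 untreated (blue) libraries; the snoRNA units reach 3.16 under VP16 about 200 bases before the start, against 1.14 untreated.

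After the ends of the units the rise was broad. In the bin from 120 to 139 bases beyond the end, density was 2.09 ± 0.252 in VP16 libraries against 1.04 ± 0.0753 in untreated libraries. From 180 to 199 bases it was 2.26 ± 0.388 against 1.25 ± 0.136. In the first 20 bases it was 1.13 ± 0.261 against 1.18 ± 0.104, within the spread.

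Downstream windows rose in 34 of 64 members outside introns and fell in 7. Over all genes 38.2% rose and 23.9% fell, beside 53.1% and 10.9% of the members. The members' median log2 change was 0.28, beside 0.11 over all genes. Summed density was 1.48 ± 0.113 in VP16 libraries and 1.09 ± 0.0508 in untreated libraries. In units of several genes 13 of 17 rose and none fell, where the downstream window of an inner gene covers its neighbours. C/D members had 24 rises and 3 falls among 40, and H/ACA members 10 and 4 among 24. With each position counted once the count of calls dropped to 25, with 23 rises and 2 falls. Over all genes 1855 of 6100 downstream windows rose in that setting and 853 fell. The median changes there were closer, at 0.16 for members and 0.09 over all genes.

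Counts were also taken by the orientation of the next gene. Of 25 last genes followed by a gene on the same strand, 15 rose downstream and 2 fell, with a median of 0.32. Of 27 followed by a gene on the opposite strand, 11 rose and 5 fell, with a median of 0.18. These are 60% and 8% for the same strand, and 40.7% and 18.5% for the opposite strand. Over all genes 38.2% of downstream windows rose and 23.9% fell. Other genes were not split by the orientation of the next gene, so the counts are not a result about snoRNA genes. The difference between the same-strand and opposite-strand sets was not tested.

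Named downstream rises came from both classes. SNR73 in the 7-gene cluster had 1.95, 2.34 and 2.97 in VP16 libraries against 0.991, 1.13 and 1.49 in untreated libraries (0.91, SE 0.12). SNR11, an H/ACA guide for the large subunit, had 1.54, 1.99 and 2.40 against 0.789, 0.965 and 1.16 (0.87, SE 0.12). SNR83 had 1.29, 1.69 and 1.78 against 0.767, 0.797 and 1.18 (0.83, SE 0.12), the opposite of its upstream window. None of these overlapped between groups, as a description of windows chosen for their rises. The share of windows without overlap over all genes is not given.

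Within the snoRNA genes themselves, 10 of 64 windows outside introns rose and 9 fell, where 10.4% of all gene windows rose and 59.0% fell. The median change was 0.04, beside −0.38 over all genes and −0.40 over 5697 protein coding genes. Summed gene density was 1.20 ± 0.154 in VP16 libraries and 1.02 ± 0.0697 in untreated libraries for snoRNA genes, and 0.811 ± 0.0432 and 0.963 ± 0.0174 for protein coding genes. snoRNA gene windows are short, with a median of 131 bases, 27.9 hits per library and an SE of 0.22, against 1191 bases, 191 hits and an SE of 0.11 for protein coding genes. The tRNA genes, shorter still at 73 bases, had 56 rises and 45 falls among 265 and a median of −0.01. The part of window length in these counts was not tested. Without TMM factors the snoRNA split was 19 rises and 6 falls. Over all genes 959 of 6071 gene windows rose in that fit and 2966 fell. Its median changes were 0.19 for snoRNA genes and −0.24 over all genes.

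**Figure D4:**
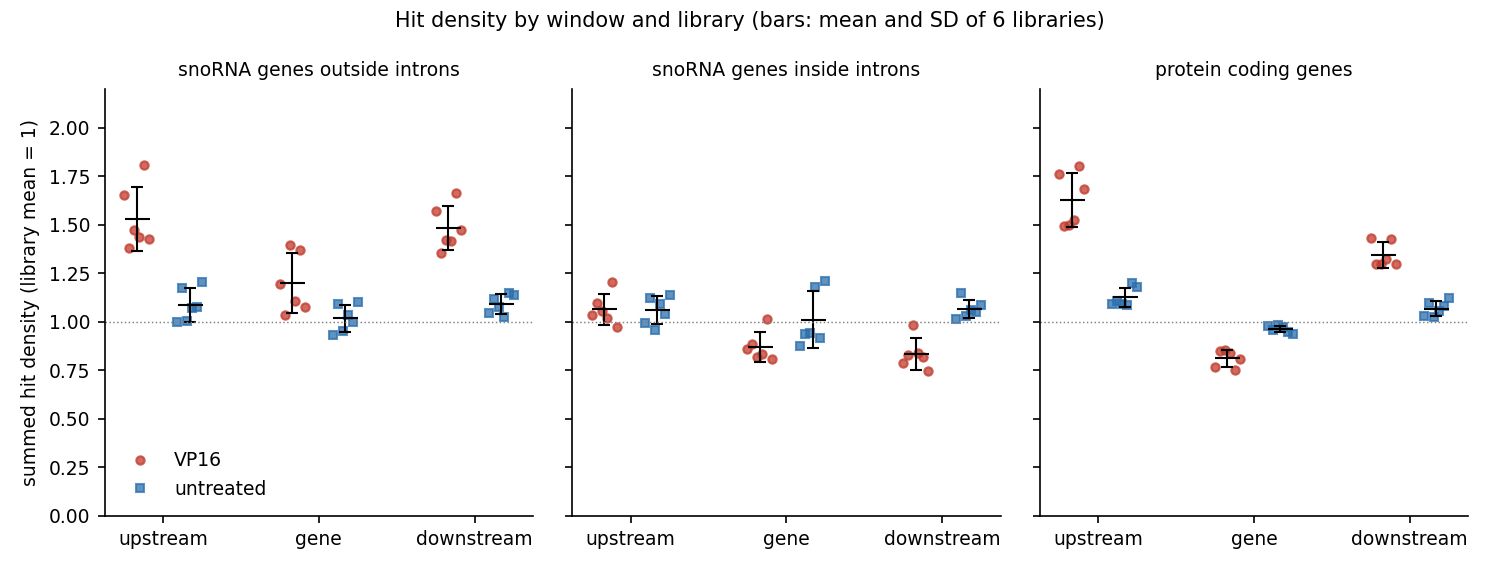
Summed hit density (vertical axis, library mean = 1) in upstream, gene and downstream windows for 3 sets of genes, with 1 point per library (VP16 red, untreated blue) and bars for the mean and SD of 6. Gene density of snoRNA genes outside introns was 1.20 under VP16 against 1.02 untreated, and that of protein coding genes 0.811 against 0.963.

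Upstream density was also set against gene density within each library. On the log2 scale the ratio was 0.36 ± 0.14 in VP16 libraries and 0.09 ± 0.03 in untreated libraries for snoRNA genes, a difference of 0.26 (SE 0.06). For protein coding genes the ratio was 1.00 ± 0.20 and 0.23 ± 0.09, a difference of 0.78 (SE 0.09), and the 2 sets of genes were not tested against each other. Replicate 1 of VP16-treated pdr1sae2 had the lowest snoRNA value among VP16 libraries, 0.07, inside the untreated range of 0.05 to 0.13. Without it the difference was 0.32. With each position counted once the snoRNA difference was −0.0059.

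The largest gene rise was at SNR70, the middle gene of the SNR41, SNR70 and SNR51 unit, a predicted methylation guide. Its gene density was 1.74, 2.60 and 3.99 in VP16 libraries against 0.651, 0.987 and 1.44 in untreated libraries. The groups did not overlap and the log2 change was 1.48 (SE 0.21, adjusted p = 3.96e-07). SNR13, SNR40 and SNR47, all methylation guides, rose in their genes by 1.02 (SE 0.23), 1.00 (SE 0.22) and 0.97 (SE 0.23) in all 6 pairs, with overlapping groups. SNR13 was at 0.41 and SNR40 at 0.21 with each position counted once, neither past the test.

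The gene falls that repeated in all 6 pairs were SNR81, SNR84 and SNR57. SNR81, which guides pseudouridylation of rRNA and of the spliceosomal U2 RNA, had 0.342, 0.526 and 0.908 in VP16 libraries against 0.844, 0.981 and 1.23 in untreated libraries (−1.06, SE 0.21, relative to the library). SNR84 changed by −0.71 (SE 0.14) and SNR57 by −0.70 (SE 0.29). All 3 had overlapping groups, and on the spike-in scale they were 0.58, 0.87 and 0.83. SNR57 had from 6 to 12 hits under VP16 and from 5 to 19 without drug, and lost its call in 7 of 12 fits without 1 library, where it ranged from −0.69 to −0.58.

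Members needed for cleavage of the ribosomal precursor had separate values. SNR128 encodes U14 and follows SNR190 on 1 transcript. SNR128 rose upstream by 0.39 (SE 0.12), in its gene by 0.79 (SE 0.21) and downstream by 0.65 (SE 0.11). Its gene density was 1.25, 1.71 and 2.47 in VP16 libraries against 0.709, 1.02 and 1.20 in untreated libraries, with no overlap. SNR190 rose in its gene by 0.71 (SE 0.17) and downstream by 0.80 (SE 0.11), where the downstream window takes in SNR128, and was at 0.26 upstream (adjusted p = 0.0863). The SNR128 upstream call was lost without bases inside other genes (0.10), and the SNR190 gene call with each position counted once (0.28).

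SNR30, an essential H/ACA snoRNA, stayed below the threshold in all 3 windows, at 0.06, 0.01 and 0.26 (SE 0.11, 0.11 and 0.12). Its upstream density was 1.10, 1.17 and 1.30 in VP16 libraries against 0.981, 1.01 and 1.17 in untreated libraries. SNR10 also stayed below it, at 0.12 upstream (SE 0.11), 0.33 in the gene (SE 0.17) and −0.07 downstream (SE 0.12). These 2 genes had overlapping groups in every window.

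SNR52, the RNA polymerase III gene, had upstream values of 0.977, 1.07 and 1.61 in VP16 libraries against 0.937, 1.07 and 1.23 in untreated libraries. Its change there, over 268 unmasked bases, was −0.04 (SE 0.15). In the whole 500 bp before its start, masked bases included, 33.0% of 40-base stretches recur. Downstream it rose to 1.88, 2.21 and 2.99 in VP16 libraries, against 0.885, 1.20 and 1.45 in untreated ones, without overlap (0.77, SE 0.12). The tRNA genes, transcribed by the same polymerase, had 147 rises and 27 falls among 265 downstream windows, and 33 and 134 among 255 upstream windows.

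SNR13, a gene used in studies of snoRNA termination, had an upstream change of 0.18 (SE 0.14, adjusted p = 0.270) and rose downstream by 0.56 (SE 0.13). SNR42 rose upstream by 0.40 (SE 0.11), with 1.57, 1.84 and 2.48 in VP16 libraries against 1.10, 1.29 and 1.52 in untreated libraries, and was at 0.03 in the gene and 0.17 downstream. With each position counted once SNR42 upstream was at 0.20 and SNR13 downstream at 0.14, neither past the test.

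Along the 7-gene cluster that begins with SNR78 and ends with SNR72, a unit of methylation guides, values were taken gene by gene. Before SNR78, density was 1.20, 1.56 and 1.71 in VP16 libraries against 0.907, 1.01 and 1.18 in untreated libraries (0.43, SE 0.12). Within 200 bp of the SNR78 start, however, the change was −1.22, a fall that passed the test (edgeR adjusted p = 0.000164). With each position counted once the 500 bp window was at 0.12 and did not pass. The SNR78 gene fell by 0.75 (SE 0.32) on the log2 scale, with 4 to 10 hits per VP16 library and 3 to 18 per untreated library, a call lost in 7 of 12 fits without 1 library, where it ranged from −0.76 to −0.58, and 0.83 on the spike-in scale. The upstream windows, in the order of the genes after SNR78, were at −0.35 for SNR77, −0.51 for SNR76, −0.25 for SNR75, 0.01 for SNR74, 0.31 for SNR73 and 0.68 for SNR72. SNR73 and SNR72 rose, SNR77 and SNR76 fell, and SNR75 and SNR74 did not pass. Neighbouring windows share bases. The SNR72 gene rose by 1.01 (SE 0.24), with 1.24, 2.05 and 2.98 in VP16 libraries against 0.547, 1.08 and 1.34 in untreated libraries.

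**Figure D5:**
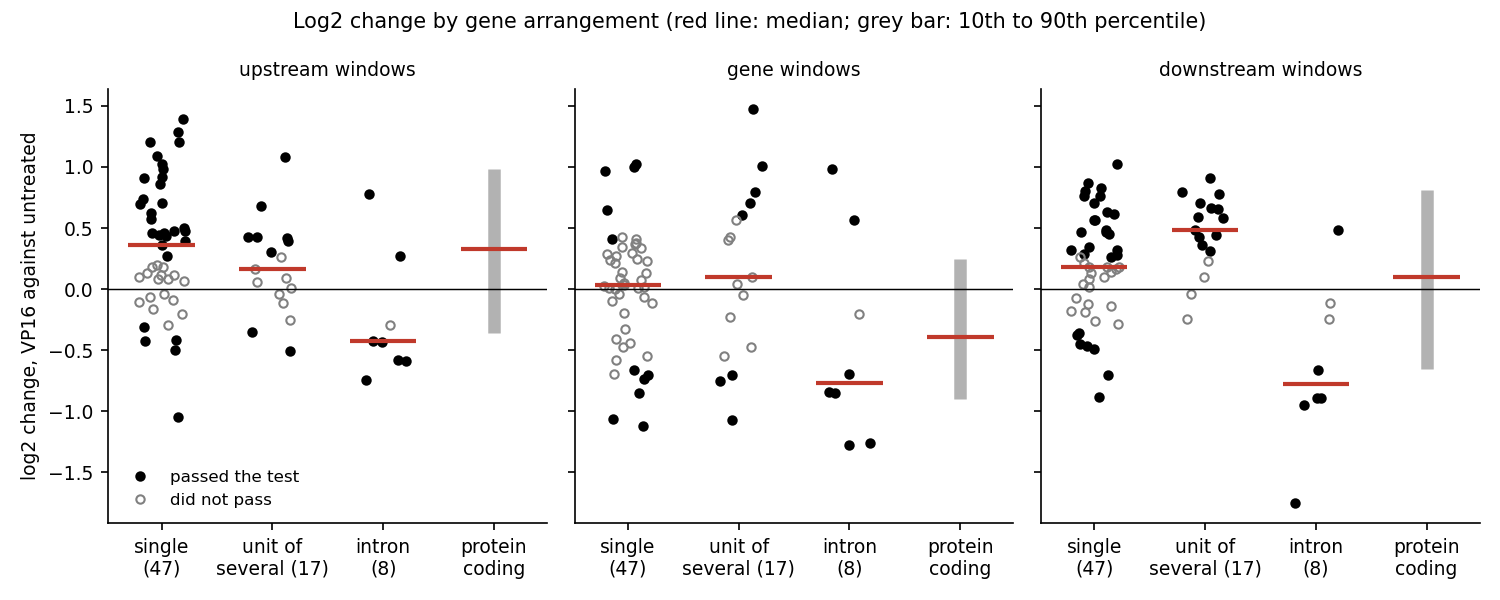
Log2 change of VP16 over untreated libraries (vertical axis) for upstream, gene and downstream windows of single snoRNA genes, genes in units of several and genes inside introns, 1 point per gene (filled where the test was passed), with medians in red. Grey bars give the 10th to 90th percentile of protein coding genes; intronic members had medians of −0.43, −0.77 and −0.78.

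Among the 24 windows of members inside introns 15 fell and 5 rose relative to the library, with medians of −0.43 upstream, −0.77 in the gene and −0.78 downstream. By window, 5 of 8 fell in each, where 13.9% of upstream, 59.0% of gene and 23.9% of downstream windows of all genes fell. These flanks are not like those of most genes, because they lie largely inside the host genes. On the spike-in scale 13 of the 14 fallen windows that could be tested there were above 0, the exception being SNR38 downstream at −0.11. Summed gene density was 0.870 ± 0.0771 in VP16 libraries and 1.01 ± 0.146 in untreated libraries, and downstream density 0.834 ± 0.0807 and 1.07 ± 0.0479.

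SNR38, in the intron of TEF4, a translation elongation factor gene, had the largest fall of any member. Downstream it had 0.306, 0.469 and 0.644 in VP16 libraries against 0.925, 1.21 and 1.90 in untreated libraries, without overlap (−1.76, SE 0.18, edgeR adjusted p = 2.67e-09). All 500 bases of that window lie in TEF4. Upstream, nearer the TEF4 promoter, it rose by 0.78 (SE 0.12), with 1.40, 1.53 and 1.89 against 0.727, 0.863 and 1.08.

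SNR191 (in NOG2), SNR39 (in RPL7A) and SNR54 (in IMD4) fell in all 3 windows. SNR191 changed by −0.74, −0.85 and −0.89 (SE 0.17, 0.19 and 0.14), SNR39 by −0.42, −1.26 and −0.95 (SE 0.16, 0.27 and 0.17), and SNR54 by −0.58, −0.85 and −0.66 (SE 0.15, 0.26 and 0.14). The upstream call of SNR39 was lost with 200 bp flanks (−0.33) and without VP16 replicate 2 of pdr1mre11 (−0.35) or untreated replicate 2 of pdr1mre11 (−0.29). With 200 bp flanks the upstream calls of SNR191 (−0.33) and SNR54 (−0.50) were also lost. The gene calls of SNR191 (−0.38) and SNR39 (−0.57) were lost with each position counted once. In the downstream windows of SNR39 and SNR59, whose hosts are paralogs, 43.8% and 46.4% of 40-base stretches recur in the genome, so hits there may be shared. SNR24 in ASC1 fell upstream (−0.59, SE 0.14) and in the gene (−1.28, SE 0.35) and was at −0.25 downstream.

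SNR59, SNR18 and SNR44 were mixed. SNR59 in RPL7B rose in its gene, with 1.83, 2.19 and 3.81 in VP16 libraries against 0.898, 1.13 and 1.84 in untreated libraries (0.99, SE 0.25), and fell by 0.44 upstream (0.036 with 200 bp flanks) and by 0.89 downstream on the log2 scale. SNR18 in EFB1 rose upstream (0.27, SE 0.12) and in the gene (0.56, SE 0.21), calls lost in 5 and 4 of 12 fits without 1 library, where the values ranged from 0.17 to 0.27 and from 0.46 to 0.52. SNR44 in RPS22B fell in the gene (−0.70, SE 0.21) and rose downstream (0.48, SE 0.12). With 200 bp flanks its downstream change was −0.78, a fall that passed the test (edgeR adjusted p = 0.00307). With each position counted once that change was −0.14 and did not pass.

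Under VP16, pdr1mre11 against pdr1 gave 0 calls among 216 member windows by edgeR's quasi-likelihood test and 0 by DESeq2, where 0.00546% of all windows were called, the MRE11 gene itself. At an unadjusted p under 0.05 there were 14 member windows, or 6.48%, against 7.33% of all windows. For pdr1sae2 against pdr1 there were 0 calls by both tools among members, 0.0% of all windows by edgeR, and 5 member windows at the unadjusted threshold, or 2.31%, against 2.06% of all windows. The interactions of VP16 with strain gave 0 member calls by both tools and 0.0% of all windows, with 12 member windows for Mre11 and 3 for Sae2 at the unadjusted threshold. Those are 5.56% of members against 3.36% of all windows for Mre11, and 1.39% against 1.12% for Sae2. The member window with the smallest unadjusted p was SNR85 upstream under Mre11 loss, at 0.60 (SE 0.18, adjusted p = 0.540 by edgeR). Each arm held 2 libraries. The spike-in factors are 7.69 for pdr1mre11, 3.63 for pdr1sae2 and 2.19 for pdr1 under VP16. On that scale 212 (Mre11) and 164 (Sae2) of the 216 windows were called. The share of all windows called there is not given, so these counts are not a result about snoRNA genes. Because 1 factor serves both replicates of a group, calibration error could not be estimated and is not part of these calls.

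Strands were also counted apart. In upstream windows 52.1 ± 0.736% of VP16 hits and 49.5 ± 1.30% of untreated hits lay on the strand of the gene, and in gene windows 48.8 ± 1.55% and 49.4 ± 1.51% (SD, n = 6 each).

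Binding motifs of known snoRNA promoter factors were searched in the 250 bases before the 52 unit starts, on both strands. ACCCTAA, used here for the Tbf1 site, stood before 4 units (7.69%) and before 1.77% of 5833 protein coding genes. TTACCCG, the Reb1 site, stood before 7 units (13.5%) and 7.05% of protein coding genes. These are letter matches, not bound sites. Only these exact letters were searched, so other forms of either site were not counted. The stretch between SNR31 and SNR5 holds GCCCTAA, which differs from ACCCTAA in the first base only. Both units rose upstream, by 1.21 and 1.29, and count below among those with neither motif. Both motifs hold ACCC, neither holds the other, and SNR35 has both. Upstream windows of the 4 units with ACCCTAA, which are SNR13, SNR46, SNR30 and SNR35, had 0 rises and 0 falls by edgeR and a median change of 0.07. Of the 7 with TTACCCG 4 rose and none fell, and of the 42 with neither 24 rose and 5 fell, where 51.8% of upstream windows of all genes rose and 13.9% fell. The differences between these sets were not tested.

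Around the 7 TTACCCG matches density was taken in steps along the gene. From 110 to 51 bases before the centre of the match it was 2.18 ± 0.467 in VP16 libraries against 1.31 ± 0.129 in untreated libraries. From 50 to 11 bases before the centre it was 2.67 ± 0.423 against 1.18 ± 0.239. Over the match, within 10 bases of its centre, it was 1.30 ± 0.474 against 0.919 ± 0.241, which overlap. From 10 to 49 bases after the centre it was 0.884 ± 0.114 against 1.07 ± 0.369, which also overlap. From 50 to 109 bases after the centre density was 3.81 ± 0.890 against 1.78 ± 0.272. The profile of all 52 units was uneven over these distances too. It was 2.25 against 1.31 from −160 to −141, 1.03 against 1.05 from −120 to −101, and 2.07 against 1.25 from −100 to −81. Whether the steps around the match differ from that profile was not tested. Around the 4 ACCCTAA matches density within 10 bases of the centre was 1.64 ± 0.599 against 0.887 ± 0.338, with overlap. SNR42 carries 1 such match of TTACCCG, 149 bases before its start, and its promoter (chrXI:559367-559616, minus strand) is shown with the match in capitals:
SNR42 upstream: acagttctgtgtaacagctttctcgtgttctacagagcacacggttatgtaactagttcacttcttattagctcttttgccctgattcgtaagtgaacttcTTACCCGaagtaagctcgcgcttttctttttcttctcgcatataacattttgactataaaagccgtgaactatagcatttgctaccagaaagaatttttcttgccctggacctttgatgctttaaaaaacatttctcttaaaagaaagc

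Protein coding genes whose products build and process snoRNAs were counted the same way. Of 28 such genes 17 rose upstream and none fell, 6 rose and 16 fell within the gene, and 6 rose and 4 fell downstream, with medians of 0.39, −0.42 and 0.04. Over all genes 51.8% rose and 13.9% fell upstream, 10.4% and 59.0% in the gene, and 38.2% and 23.9% downstream, with medians of 0.30, −0.38 and 0.11. Among C/D core proteins, the methyltransferase NOP1 rose upstream by 0.72 (SE 0.12) and fell in its gene by 1.21 (SE 0.16) on the log2 scale, and NOP58 fell in its gene by 1.10 (SE 0.12). Among H/ACA core proteins NOP10 and NHP2 fell in their genes by 1.30 (SE 0.24) and 0.89 (SE 0.14), and GAR1 rose upstream by 0.83 (SE 0.14). The exosome cofactor LRP1 rose upstream by 1.54 (SE 0.12), and the exonuclease RAT1 rose downstream by 1.28 (SE 0.12) and fell in its gene by 0.93 (SE 0.09). Among assembly factors NAF1 rose downstream by 0.93 (SE 0.15), while RVB1 and BCD1 fell in their genes by 0.75 (SE 0.10) and 0.74 (SE 0.13). SRP40, a nucleolar chaperone, rose upstream by 1.12 (SE 0.12) and fell in its gene by 1.27 (SE 0.12) and downstream by 0.97 (SE 0.16).

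The 8 host genes of intronic snoRNAs had 7 falls and no rise within the gene, and 5 rises and 1 fall on either side. Of all genes 59.0% fell within the gene, 51.8% rose upstream and 38.2% rose downstream. RPL7A and ASC1 rose downstream by 1.41 (SE 0.13) and 1.41 (SE 0.12), and TEF4 rose upstream by 1.21 (SE 0.13).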

How the data were processed

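CC-seq libraries of 12 yeast cultures were analysed. Per the study's methods, the authors aligned reads with Bowtie2 to Cer3H4L2 (Cer3 with altered his4 and leu2 loci), assigned each protein-linked 5′ end to a nucleotide and removed long terminal repeats, retrotransposons, telomeres and rDNA. The deposited maps hold raw counts of hits per position and strand. The deposited spike-in scaling factors are a ratio, 1 per group, from human DNA. Multi-mapping reads were kept by the aligner setting, so hits in repeated stretches are uncertain. Coordinates matched R64 outside chromosome III.

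Runs of 100 or more bases without a hit in any library were masked, and windows needed 50 unmasked bases. Python 3.11.15 was used, with edgeR 4.0.16 and DESeq2 1.42.0 in R 4.3.3. The edgeR fit used TMM, filterByExpr and glmQLFit on all 12 libraries with strain additive, and strain contrasts and interactions used 6 groups. The fit was also run on simulated data in which few windows changed, evenly up and down. That run cannot show how TMM factors behave where many windows change, as here (12040 of 18308 called), and its outcome is not given. Total nuclear hits ran from 685100 to 3463679, and snoRNA gene windows were less precise than their flanks. p-values of the strain contrasts and interactions measure the spread between cultures labelled as replicates. For VP16 against untreated, strain was additive, so the spread also takes in differences between strains in their response to VP16.

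Named members were the 10 largest upstream rises and 5 largest falls, and 5 of each for gene and downstream windows, that passed the test with the same sign in all 6 same-numbered pairs; members with roles in processing, cluster ends and intronic members were always named. The 5 sites and the 3 largest changes per role of pathway genes were named too. SNR85, the inner genes of the SNR78 cluster and the promoters printed were outside the rule and chosen after their values were seen. Fewer falls than the rule allows met it. Members and lists were chosen with earlier results of these data known. Alternatives are under the closing section. The maps that pool both replicates of a group were not used.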

Additional observations from a re-analysis of the deposited data

How the results depend on the processing

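The counts of called members were 35 to 39 upstream, 15 to 23 in the gene and 36 to 42 downstream when 1 library was left out, against 39, 19 and 41. The spike-in library sizes gave 63, 59 and 64, and called 212 (Mre11), 164 (Sae2) and 193 (interactions) member windows. The share of all windows called there is not given, so these counts are not a result about snoRNA genes. The 193 adds the Mre11 and Sae2 interactions, so a window can count for each. The other settings counted for these contrasts gave 0. Those with 200 bp flanks, without flank bases inside other genes or with each position counted once were not counted. A minimum of 10 hits in every library left 30 gene windows and 9 calls. With each position counted once, 25 downstream windows were called, the upstream over gene difference was −0.0059 and the C share 45.1%. With 1 library left out that difference ran from 0.24 to 0.32 and the C share from 56.6% to 60.4%. Why these values moved was not tested.

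The replicate numbers did not pair the libraries: deviations of same-numbered VP16 and untreated libraries correlated at 0.06 (pdr1), 0.08 (pdr1sae2) and −0.20 (pdr1mre11). A replicate block gave 39, 21 and 43 calls, and 0 for strain contrasts and interactions.

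Of 60 called named windows, 6 lost the call in some fit without 1 library and none reversed. With each position counted once 17 lost the call and 1 reversed, with 200 bp flanks 8 lost it and 9 reversed, with total hits 5 lost it, with DESeq2 3, without flank bases inside other genes 2, and on the spike-in scale 1 lost it and 22 reversed. On the spike-in scale these turned positive: SNR80 (0.51), SNR49 (1.10), SNR83 (1.19), SNR77 (1.18), SNR39 (1.14), SNR54 (0.98), SNR24 (1.03), SNR191 (0.86) and SNR59 (1.16) upstream; SNR81 (0.58), SNR84 (0.87), SNR57 (0.83), SNR78 (0.83), SNR39 (0.39), SNR44 (0.86), SNR54 (0.75) and SNR191 (0.74) in the gene; SNR17B (0.74), SNR39 (0.67), SNR54 (0.90), SNR191 (0.70) and SNR59 (0.66) downstream. With 200 bp flanks SNR67 (−0.27), SNR39B (−0.27), SNR17B (−0.020), SNR62 (−0.072) and SNR78 (−1.22) turned negative and SNR49 (0.0039) and SNR59 (0.036) positive upstream, and SNR80 (−0.16) and SNR44 (−0.78) turned negative downstream. Of these, SNR78 upstream and SNR44 downstream passed the test as falls, and the others did not pass. SNR44 downstream was −0.14 with each position counted once. Leaving out the top unit from each bin of the start profile was chosen after seeing the data.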
